A study of Mus musculus with 12 samples.

Results

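The genes described here are 45 genes of mitosis, covering the cyclins and kinases that start it, the spindle checkpoint, the kinetochore, the mitotic kinesins, spindle proteins and cytokinesis. They were listed by name, with earlier results of these data known, and looked up by gene symbol in the array annotation. Of the 45 genes, 44 were measured, among 19938 genes tested in all, and the level of Ccnb1 is not analysed here. A gene with several probe sets of its own was read from its brightest.

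The cells were MIN6, an established mouse insulinoma line that keeps many features of pancreatic beta cells and was derived from mice carrying the simian virus large T antigen as a transgene. All cells were first kept in serum-containing medium, plated at 50000 cells per well and transfected a day later with siRNA, at 2 µM for the Hes3 siRNA. One pair of groups was in classic conditions (CC), with serum at 20% oxygen, and held 2 arrays labelled Hes3 siRNA and 2 labelled scrambled control siRNA. The other pair was in defined conditions (DC), without serum at 5% oxygen, and held 4 arrays labelled Hes3 siRNA (replicate numbers 1, 2, 5 and 7) and 4 labelled scrambled siRNA (1 to 4). RNA was taken between 12 and 24 hours after transfection, with no time given for the single sample. Serum and oxygen changed together, so their effects cannot be told apart. The samples were duplicates or quadruplicates of a single experiment on a single line, so the p-values reflect no more than the spread among them. Hes3 encodes a basic helix-loop-helix transcriptional repressor, and the design asked what its knockdown changes in each culture condition.

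In mitosis, cyclin-dependent kinase 1 bound to A- and B-type cyclins, with the Polo and Aurora kinases, condenses the chromosomes and builds the spindle. Kinetochores tie chromosomes to spindle microtubules, and the spindle checkpoint holds back the anaphase-promoting complex (APC/C), a ubiquitin ligase, until every chromosome is attached. Kinesins, the centralspindlin complex and anillin then separate the chromosomes and divide the cell. The messenger RNAs of these proteins accumulate together late in the cell cycle, largely through the MuvB complex with B-MYB and FOXM1, which acts at a promoter element called the cell cycle genes homology region (CHR), often beside CCAAT boxes bound by NF-Y. In a culture, the signal of these genes therefore depends on how many cells are near mitosis as well as on RNA per cell, and in bulk RNA the 2 cannot be told apart.

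Promoter sequences are shown first because the CHR and CCAAT letters are what most of these genes share beyond their function, and neither was used to choose them. The sequences are from RefSeq (mouse build GRCm38.p6) and run from 250 bases before to 50 bases after an annotated start. Printed sequences and motif positions are those of the first listed start of a gene. An entry was found for 41 of the 45 genes, Ccnb1 included. Ccna2, Aurkb, Kif20a and Tpx2 had none. Each sequence is written 5′ to 3′ on the gene's strand, with CHR letters (TTTGAA, or TTCAAA where they lie on the opposite strand) and CCAAT letters (CCAAT, or ATTGG on the opposite strand) in capitals. The first 5 are the 100 bases just before the start, from promoters that hold both elements in that stretch: Cdk1 at chr10:69352913-69353012 (minus strand), Top2a at chr11:99024190-99024289 (minus), Kif11 at chr19:37376282-37376381 (plus), Cdc20 at chr4:118437344-118437443 (minus) and Ube2c at chr2:164769829-164769928 (plus).
Cdk1: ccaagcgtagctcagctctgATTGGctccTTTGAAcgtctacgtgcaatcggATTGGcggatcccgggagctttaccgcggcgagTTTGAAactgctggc
Top2a: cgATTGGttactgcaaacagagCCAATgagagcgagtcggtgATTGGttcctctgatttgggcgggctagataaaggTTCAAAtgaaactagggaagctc
Kif11: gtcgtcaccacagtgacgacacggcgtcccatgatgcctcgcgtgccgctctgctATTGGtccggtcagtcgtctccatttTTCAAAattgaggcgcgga
Cdc20: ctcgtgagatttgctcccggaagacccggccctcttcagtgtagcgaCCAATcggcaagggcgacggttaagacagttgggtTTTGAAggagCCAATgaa
Ube2c: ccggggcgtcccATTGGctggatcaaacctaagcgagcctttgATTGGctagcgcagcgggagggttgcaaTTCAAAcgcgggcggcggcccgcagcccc

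The next 5 promoters, of genes named in the comparisons below, carry the CHR letters at or just after the annotated start. For each, 30 bases around those letters are shown. They lie at chr11:40733412-40733441 for Hmmr (minus), chr1:139454767-139454796 for Aspm (plus), chr9:61946780-61946809 for Kif23 (minus), chr7:122159453-122159482 for Plk1 (plus) and chr15:99651634-99651663 for Racgap1 (minus).
Hmmr: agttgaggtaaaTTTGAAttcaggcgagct
Aspm: ggaggcgcgataTTTGAAccgagcaaaagc
Kif23: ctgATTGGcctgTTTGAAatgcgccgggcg
Plk1: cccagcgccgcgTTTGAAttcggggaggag
Racgap1: ctggtgcgtgatTTTGAAccggatctggcg

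The letters TTTGAA, searched on both strands, were in 30 of the 41 mitosis genes (73.2%), counting a gene if any of its listed starts held them. This held for 17.3% of 15614 genes tested on the arrays and 20.2% of all 27025 genes in the promoter table. The other shares were counted in the same way, except for the window near the start. CCAAT was also in 30 of 41 (73.2%), against 41.7% of tested genes, and both motifs stood together in 25 of 41 (61.0%), against 6.89%. The longer letters TTTGAATT, which contain TTTGAA, were in 11 of 41 genes (26.8%), against 1.45% of tested genes. Between 50 bases before and 50 bases after the first listed start, 27 of the 41 genes had TTTGAA (65.9%), against 3.82% of tested genes. This window was chosen after the positions were seen. Kif14, Kif2c and Mki67 had the letters only farther upstream. The 11 genes without these letters anywhere from 250 bases before to 50 bases after the start were Birc5, Bub1, Ccnb1, Cenpe, Cenpi, Kif18a, Mad2l1, Melk, Nek2, Nuf2 and Nusap1. A match describes letters and does not show that a factor binds there.

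**Figure D1:**
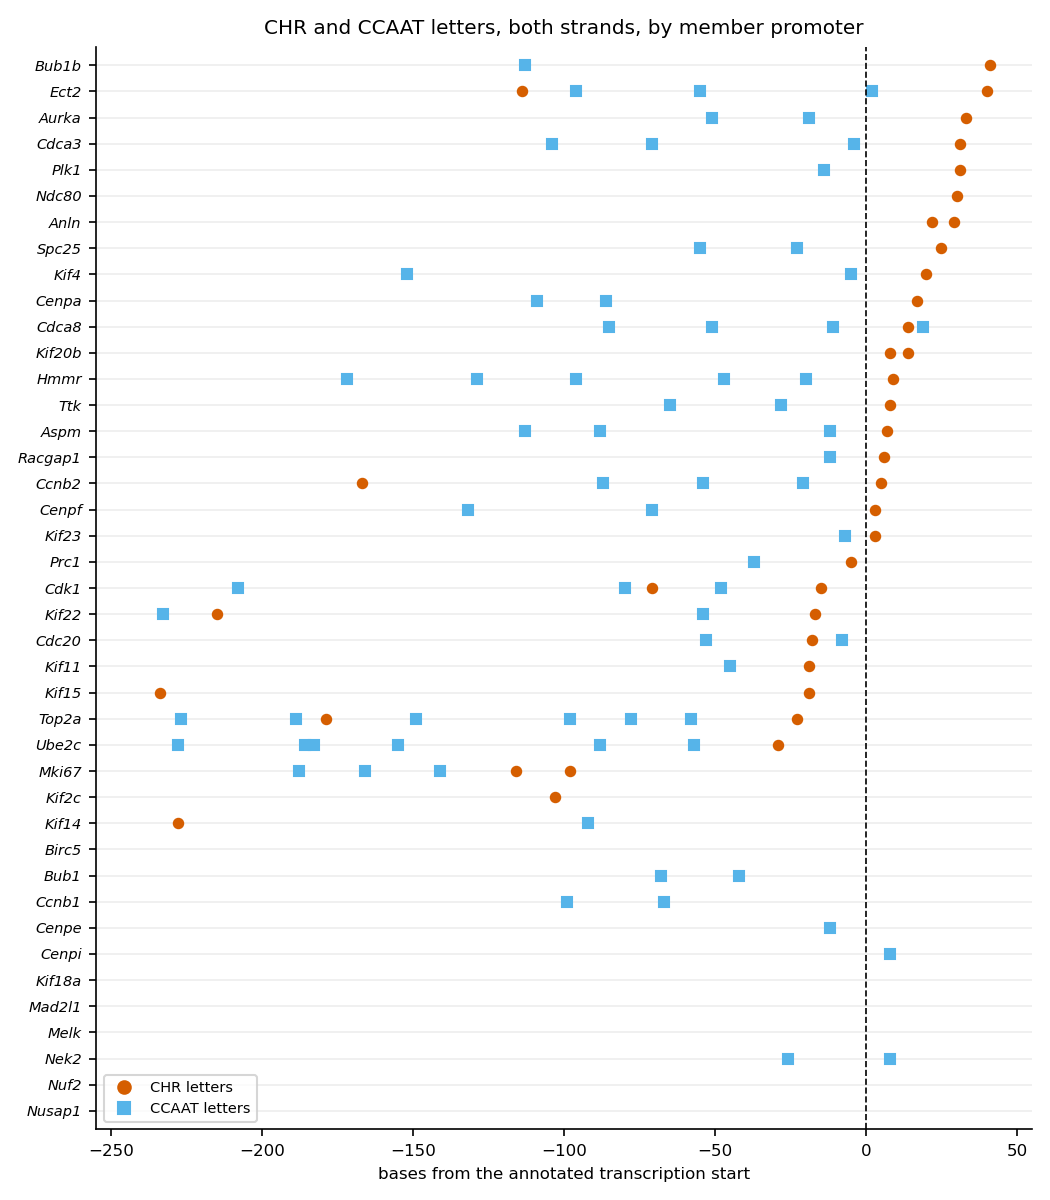
Positions of the CHR letters (TTTGAA, orange circles) and CCAAT letters (blue squares), on either strand, in the 41 promoters of mitosis genes with a RefSeq entry; the x axis is bases from the annotated start (dashed line) and each row is a gene. CHR letters lie mostly close to the start (27 of 41 genes within 50 bases), and 65 of the 70 CCAAT copies lie before it.

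On the deposited log2 scale, the array medians lay between 7.78 and 7.96, and the SD of signals within an array between 1.76 and 1.90. The 4 DC arrays labelled Hes3 siRNA had the narrowest spread (SD 1.76 to 1.80, against 1.82 to 1.85 in the DC scrambled arrays), with bright genes lower and dim genes higher, as described beside the first comparison. The Hes3 probe set was not lower under the Hes3 label: it was at 7.34 ± 0.061 in DC arrays labelled Hes3 siRNA and 7.19 ± 0.064 in DC scrambled arrays (SD, n = 4 each), a difference of 0.15 (limma adjusted p = 0.114; two-sided exact permutation p = 0.0286 over 70 regroupings). That permutation value is the smallest that 70 regroupings allow. It means that the arrays did not overlap, which held above for 23.9% of all genes. The Hes3 means lay below all array medians, and dim genes as a whole were higher under this label in DC. In CC the difference was 0.20 (adjusted p = 1). For this reason the groups are called by their labels. Of 12 beta cell markers (Ins2, Pdx1, Mafa and others), 11 had a signal above the median of all genes. Along the first principal component of all genes, which held 61.0% of the variance, DC arrays 1 and 5 labelled Hes3 siRNA stood at 34.8 and 29.2 and arrays 2 and 7 at 15.6 and 12.8. Counts and medians in this group are therefore also given without arrays 1 and 5. The CC scrambled arrays also stood apart, array 1 at -7.96 and array 2 at -32.7, and each was left out in turn.

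The first comparison asked how the mitosis genes differed between the siRNA labels in defined conditions. Of 44 genes, 39 were lower in the arrays labelled Hes3 siRNA at an adjusted p under 0.05, and 0 were higher. Among all 19938 genes tested, 18.3% were lower and 28.9% higher. All 44 fold changes were negative, from -0.75 (Hmmr) to -0.04 (Aurkb) with a median of -0.35, beside a median of 0.06 over all genes. For 37 of the 44 genes every Hes3-labelled array was below every scrambled array, which held for 17% of all genes; none had every array above, against 23.9% of all genes. The changes were modest in size: Hmmr, the largest, was at 59.6% of its scrambled signal, and only Hmmr and Ect2 passed 1.5-fold.

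Signal level moved with this difference over all genes. With the 19938 genes ordered by mean signal and cut into 4 equal bins, the median difference was 0.15 and 0.21 in the dimmest 2 bins, -0.03 in the next and -0.15 in the brightest, where 2039 of 4985 genes were lower. Of the mitosis genes, 11 lay in the bin below the brightest, where 9 were lower with a median of -0.32, and 33 in the brightest, where 30 were lower with a median of -0.36. After quantile normalization, which gives every array the same spread, 30 of the 44 were lower with a median of -0.23, while 11.8% of all genes were lower and 17% higher. Centring each array on its median gave 42 lower, with 25.2% of all genes lower and 14.6% higher. Without DC arrays 1 and 5 labelled Hes3 siRNA, 8 of the 44 were lower (Aspm, Bub1, Kif18a, Kif22, Ect2, Cenpi, Plk1 and Anln), with a median of -0.30, beside 1.41% of all genes.

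**Figure D2:**
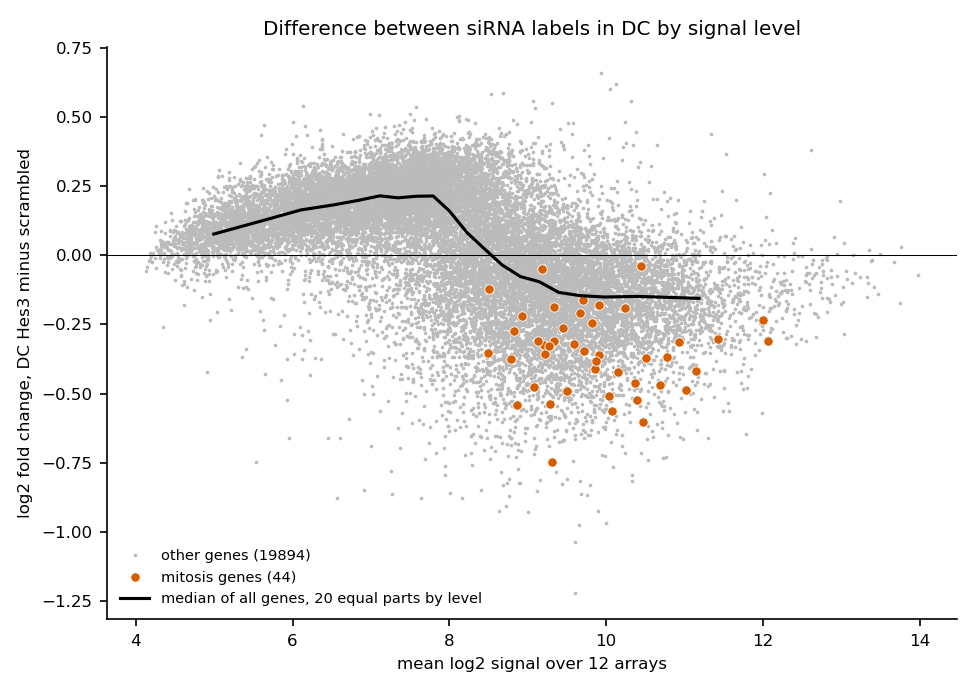
Log2 fold change between siRNA labels in DC (y axis, Hes3 minus scrambled) against the mean log2 signal over 12 arrays (x axis) for the 44 measured mitosis genes (orange) and all other genes tested (grey); the black line joins medians of 20 equal parts of all genes by signal. The line falls below 0 for bright genes, and most mitosis genes lie below the line, from -0.04 for Aurkb to -0.75 for Hmmr.

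Levels below are log2 signals, given for the DC arrays in the order 1, 2, 5 and 7 for the Hes3 label and 1 to 4 for scrambled, and for the CC arrays in the order 1 and 2. Mki67 and Top2a, which act on the chromosomes, were both lower. Mki67, which coats mitotic chromosomes and is the usual proliferation marker, was at 11.96, 12.11, 11.86 and 11.93 under the Hes3 label in DC and at 12.31, 12.31, 12.19 and 12.29 with scrambled siRNA. Its CC values were 11.96 and 11.98 under the Hes3 label and also 11.96 and 11.98 with scrambled siRNA. The DC scrambled arrays thus stood above the other 8 arrays, and the DC difference was -0.31 (SE 0.0621, adjusted p = 0.00378). Top2a, the topoisomerase that untangles sister DNA, was at 10.58, 10.99, 10.60 and 10.82 under the Hes3 label in DC against 11.34, 11.21, 11.13 and 11.24, without overlap. Its difference was -0.49 (SE 0.0874, adjusted p = 0.00302), and its CC values were 11.05 and 11.04 under the Hes3 label and 10.96 and 11.20 with scrambled siRNA. A second, dimmer probe set of Top2a gave -0.51.

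All 4 measured genes of the cyclin group were lower, with a median of -0.31. Ccna2 encodes cyclin A, which partners CDK1 and CDK2. It was at 10.84, 10.94, 10.81 and 10.71 under the Hes3 label in DC and at 11.25, 11.30, 11.19 and 11.22 with scrambled siRNA, with no overlap and a difference of -0.42 (SE 0.0876, adjusted p = 0.00434). In CC, Ccna2 was at 11.29 and 11.59 under the Hes3 label and at 11.09 and 11.50 with scrambled siRNA, and all but the first scrambled array lay at or above the level of the DC scrambled arrays. Cdk1, the kinase that starts mitosis, was at 10.64, 10.82, 10.61 and 10.62 against 10.99, 10.98, 10.94 and 11.04 in DC, a difference of -0.31 (SE 0.0858, adjusted p = 0.0112). Its highest Hes3-labelled array, number 2, was still below every scrambled array. The CC values of Cdk1 were 11.13 and 11.26 under the Hes3 label and 10.81 and 11.28 with scrambled siRNA, so the scrambled arrays lay on either side of the Hes3-labelled ones. Ccnb2, a B-type cyclin, and Cdca3, which triggers turnover of the mitotic inhibitor Wee1, were also lower, with differences of -0.30 and -0.25.

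Of the 4 mitotic kinases, 3 were lower, and Aurka missed the threshold. Plk1, the Polo kinase of mitotic entry and centrosome maturation, was at 10.48, 10.67, 10.39 and 10.40 under the Hes3 label in DC and at 10.88, 11.04, 10.89 and 11.01 with scrambled siRNA. The groups did not overlap, and the difference was -0.47 (SE 0.0791, adjusted p = 0.00256). In CC, Plk1 was at 10.56 and 10.80 under the Hes3 label and 10.44 and 10.66 with scrambled siRNA, so the DC scrambled arrays were the highest of the 12. Nek2, a kinase that splits the centrosomes, was at 9.33, 9.54, 9.23 and 9.18 against 9.58, 9.50, 9.66 and 9.58 in DC. Its Hes3-labelled array 2 lay above scrambled array 2, so the groups overlapped, with a difference of -0.26 (SE 0.0779, adjusted p = 0.0158). The CC values of Nek2 were 9.40 and 9.42 under the Hes3 label and 9.34 and 9.55 with scrambled siRNA. Melk, a kinase that peaks in mitosis, was lower with a difference of -0.22. Aurka, the Aurora kinase of the spindle poles, was at 9.61, 9.66, 9.68 and 9.41 against 9.70, 9.76, 9.81 and 9.73, which do not overlap by a narrow margin. Its difference was -0.16 (SE 0.0702, adjusted p = 0.0679), and its CC values were 9.78 and 9.86 under the Hes3 label and 9.63 and 9.84 with scrambled siRNA.

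All 6 genes of the spindle checkpoint and of APC/C activation were lower, with no overlap of arrays. Bub1, a checkpoint kinase of the kinetochore, was at 9.51, 9.90, 9.82 and 9.63 under the Hes3 label in DC and at 10.34, 10.34, 10.25 and 10.17 with scrambled siRNA. The gap between the groups was clear of both spreads, with a difference of -0.56 (SE 0.0881, adjusted p = 0.00217). Its CC arrays, at 10.27 and 10.29 under the Hes3 label and 10.00 and 10.32 with scrambled siRNA, lay with the DC scrambled ones except for scrambled array 1. Mad2l1, the checkpoint protein that sequesters the APC/C activator, was at 10.00, 10.21, 10.04 and 9.93 against 10.63, 10.40, 10.43 and 10.58, a difference of -0.46 (SE 0.0964, adjusted p = 0.00422). In CC it was at 10.61 and 10.73 under the Hes3 label and at 10.21 and 10.71 with scrambled siRNA, so only that scrambled array 1 reached down to the DC Hes3-labelled values. The other 4 genes, the checkpoint kinases Ttk and Bub1b, the APC/C activator Cdc20 and its ubiquitin-conjugating enzyme Ube2c, differed by -0.35, -0.19, -0.21 and -0.19.

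The chromosomal passenger complex, which corrects faulty attachments at the centromere, was the one role in which most members missed the threshold. Only Cdca8 (borealin), its targeting subunit, was lower: 9.10, 9.20, 9.17 and 8.83 under the Hes3 label in DC against 9.52, 9.35, 9.39 and 9.34, a difference of -0.32 (SE 0.0793, adjusted p = 0.00722). In CC, Cdca8 was at 9.15 and 9.21 under the Hes3 label and 8.99 and 9.16 with scrambled siRNA. Birc5 (survivin) was at 9.09, 9.35, 9.22 and 9.05 against 9.21, 9.19, 9.28 and 9.23 in DC, with overlap and a difference of -0.05 (95% interval -0.19 to 0.09, adjusted p = 0.529). Its CC arrays all lay between 9.13 and 9.15. Aurkb, the kinase of the complex, singled out after its values were seen, was at 10.41, 10.41, 10.47 and 10.26 against 10.42, 10.38, 10.51 and 10.39. Its difference was -0.04 (95% interval -0.18 to 0.10, adjusted p = 0.65), and its CC values were 10.60 and 10.60 under the Hes3 label and 10.33 and 10.58 with scrambled siRNA. The signs of Aurkb and Birc5 turned positive after quantile normalization (0.10 and 0.04) and cyclic loess.

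Of 7 kinetochore genes, 6 were lower, with a median of -0.32 over the 7. Cenpe, the kinesin-like motor that brings chromosomes to the spindle equator, was at 9.64, 9.97, 9.58 and 9.63 under the Hes3 label in DC and at 10.24, 10.14, 9.99 and 10.10 with scrambled siRNA. Array 2 of the Hes3 label came within a narrow margin of scrambled array 3, without overlap, and the difference was -0.41 (SE 0.0862, adjusted p = 0.00433). The CC values of Cenpe, 9.68 and 9.78 under the Hes3 label and 9.62 and 9.84 with scrambled siRNA, lay with the DC Hes3-labelled ones. Cenpi, a subunit of the inner centromere network, was at 8.48, 8.61, 8.59 and 8.40 against 9.03, 8.80, 8.86 and 8.89, a difference of -0.37 (SE 0.0722, adjusted p = 0.00347). Its CC values, 8.94 and 8.89 under the Hes3 label and 8.88 and 9.12 with scrambled siRNA, lay instead with the DC scrambled ones. Cenpf, Nuf2, Ndc80 and Spc25 differed by -0.35, -0.32, -0.31 and -0.23; the last 3 belong to the NDC80 complex, which grips the microtubule. Cenpa, the centromeric histone, was at 9.93, 9.93, 9.90 and 9.64 against 9.98, 9.98, 10.02 and 10.15, without overlap, and missed the threshold (-0.18, SE 0.074, adjusted p = 0.0553). In CC, Cenpa was at 9.93 and 9.90 under the Hes3 label and at 9.67 and 9.83 with scrambled siRNA.

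Kinesins are microtubule motors, and 9 of the 10 here were lower, with a median of -0.37. Kif18a, which dampens chromosome oscillation at the plus ends, was at 8.52, 8.83, 8.37 and 8.57 under the Hes3 label in DC and at 9.15, 9.14, 9.10 and 9.07 with scrambled siRNA. Every Hes3-labelled array was well below the tightly grouped scrambled ones, and the difference was -0.54 (SE 0.084, adjusted p = 0.00212). In CC it was at 8.88 and 8.87 under the Hes3 label and at 8.77 and 9.03 with scrambled siRNA, mostly between the DC groups. Kif23, the motor subunit of centralspindlin, was at 10.02, 10.28, 9.78 and 9.61 against 10.45, 10.50, 10.41 and 10.38, a difference of -0.51 (SE 0.104, adjusted p = 0.00401). The 4 Hes3-labelled arrays of Kif23 were widely spread (SD 0.291) and reached down to the CC values of 9.74 and 9.72 under the Hes3 label and 9.71 and 9.77 with scrambled siRNA. The chromokinesins Kif4 and Kif22 differed by -0.48 and -0.36, the midzone motor Kif20a by -0.42, and the spindle-separating motors Kif11 and Kif15 by -0.37 and -0.31. Kif2c, which depolymerizes microtubules at centromeres, differed by -0.33 and Kif20b by -0.27. Kif14 missed the threshold at -0.12 (adjusted p = 0.102), and its second, dimmer probe set gave 0.09.

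All 5 spindle proteins were lower, with a median of -0.49. Hmmr, a spindle-pole protein also known as the hyaluronan-mediated motility receptor, had the largest difference of the 44 genes. It was at 8.73, 9.11, 8.84 and 8.84 under the Hes3 label in DC and at 9.86, 9.55, 9.45 and 9.64 with scrambled siRNA, without overlap, a difference of -0.75 (SE 0.125, adjusted p = 0.0025). The CC values of Hmmr were 9.37 and 9.61 under the Hes3 label and 9.02 and 9.67 with scrambled siRNA, so CC scrambled array 1 lay near the DC Hes3-labelled values and array 2 near the DC scrambled ones. Nusap1, which bundles microtubules near chromosomes, was at 8.89, 9.17, 8.89 and 8.88 against 9.58, 9.49, 9.40 and 9.51, a difference of -0.54 (SE 0.106, adjusted p = 0.00361). Its CC values were 9.32 and 9.58 under the Hes3 label and 9.03 and 9.60 with scrambled siRNA. Aspm, which focuses the spindle poles, was at 9.58, 9.58, 9.31 and 9.26 against 9.92, 9.97, 9.84 and 9.96, a difference of -0.49 (SE 0.0749, adjusted p = 0.00202). Unlike in Hmmr and Nusap1, the CC values of Aspm, 9.14 and 9.16 under the Hes3 label and 9.19 and 9.18 with scrambled siRNA, lay below all DC arrays. Tpx2, which activates Aurora A on the spindle, and Prc1, which bundles the central spindle, differed by -0.38 and -0.36.

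All 3 cytokinesis genes were lower, with a median of -0.52. Ect2, the exchange factor that activates RhoA at the division site, was at 10.23, 10.47, 10.05 and 10.06 under the Hes3 label in DC and at 10.87, 10.91, 10.59 and 10.86 with scrambled siRNA. The lowest scrambled array, number 3, was still above the highest Hes3-labelled one, and the difference was -0.60 (SE 0.0986, adjusted p = 0.00234). In CC, Ect2 was at 10.47 and 10.58 under the Hes3 label and at 10.15 and 10.44 with scrambled siRNA. Anln (anillin), a scaffold of the contractile ring, was at 10.15, 10.47, 10.11 and 10.09 against 10.90, 10.70, 10.65 and 10.67, a difference of -0.52 (SE 0.0858, adjusted p = 0.0024). Its CC values, 10.19 and 10.34 under the Hes3 label and 10.16 and 10.32 with scrambled siRNA, fell within the range of the DC Hes3-labelled arrays. Racgap1, the partner of Kif23 in centralspindlin, differed by -0.37 (adjusted p = 0.00413).

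**Figure D3:**
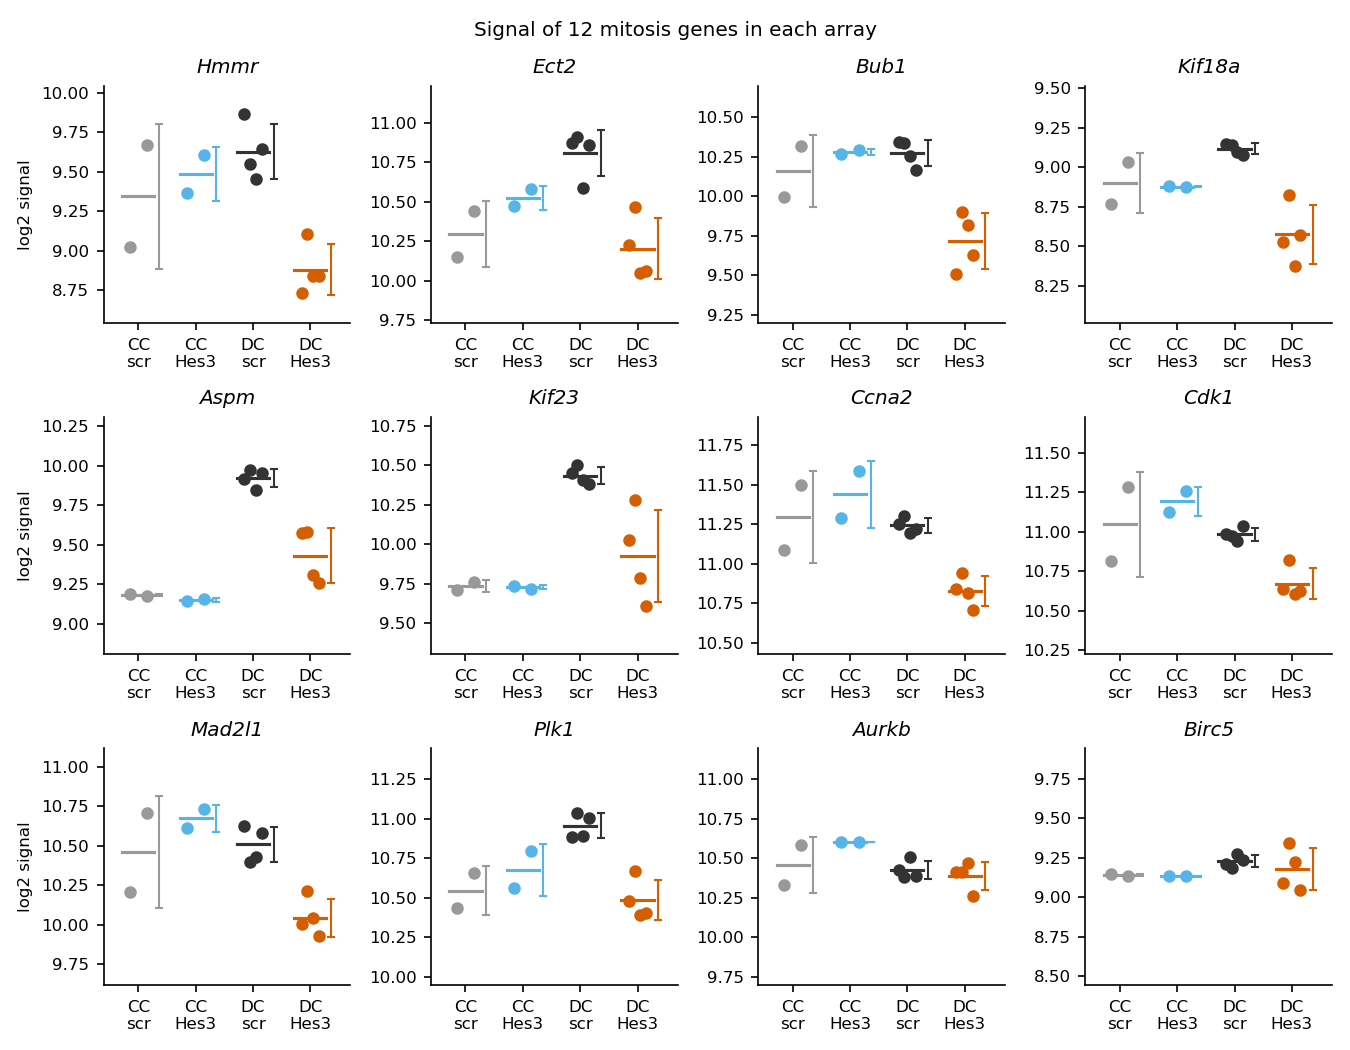
Log2 signal (y axis) of 12 mitosis genes in each array of the 4 groups (x axis); points are arrays, horizontal lines group means and the bars beside them SDs, with 2 arrays in each CC group and 4 in each DC group. In 10 of the 12 panels the DC arrays labelled Hes3 siRNA lie below the DC scrambled arrays, and Aurkb and Birc5 overlap.

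Arrays were compared over all 44 genes. The median deviation of the 44 genes from their means over 12 arrays was 0.14 to 0.24 in the 4 DC scrambled arrays. Under the Hes3 label in DC it was -0.20, 0.01, -0.20 and -0.28 for arrays 1, 2, 5 and 7, so array 2 lay between the other 3 and the scrambled arrays. Array 2 was the highest of its group for 41 of 44 genes and array 7 the lowest for 28. In CC the deviations were -0.01 and 0.04 under the Hes3 label and -0.13 and 0.08 with scrambled siRNA, where array 1 was the lower for 42 of 44 genes. Such counts of highest and lowest arrays were not made over all genes. The spread of all signals also differed between arrays. It was widest in its group for DC Hes3-labelled arrays 2 and 7 (SD 1.80 each), and CC scrambled array 1 had 1.84 against 1.90 in array 2. The median SD over the 44 genes was 0.16 in the CC scrambled group, 0.14 under the Hes3 label in DC, and 0.057 and 0.064 in the other two groups.

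**Figure D4:**
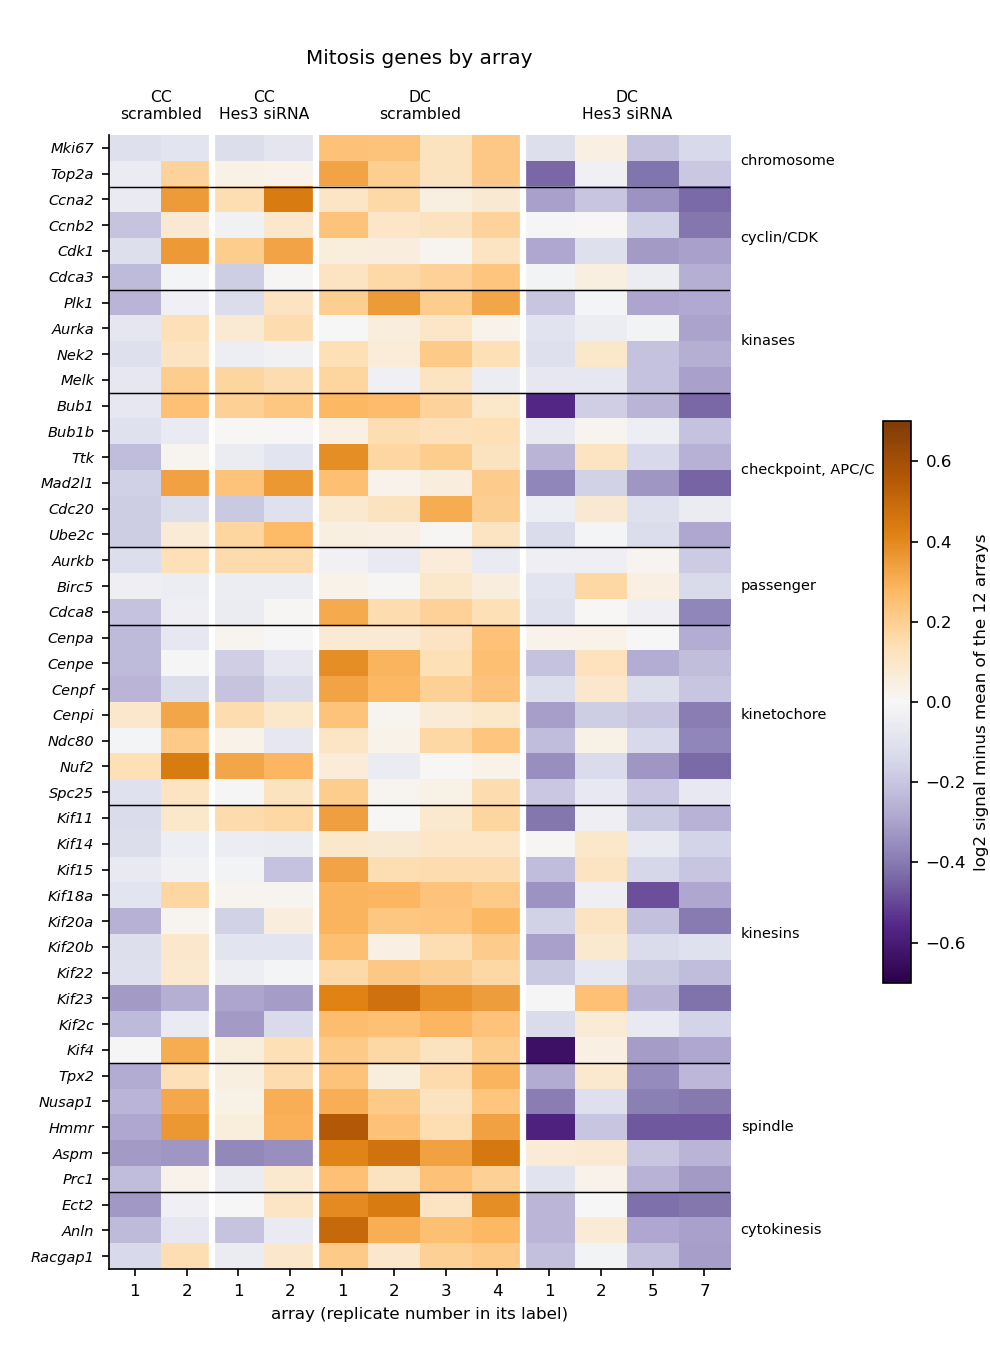
Log2 signal of each measured mitosis gene (rows, by role) in each array (columns, by group) minus the gene's mean over the 12 arrays; purple is lower and orange higher. DC scrambled arrays are mostly above the mean (median 0.14 to 0.24) and DC Hes3-labelled arrays 1, 5 and 7 mostly below it (median -0.28 to -0.20), with array 2 near it.

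Other mitotic genes, listed by complex, were read in the same comparison. Of 163 such genes, 158 were measured, and 94 were lower (59.5%) and 2 higher, with a median of -0.22, beside 18.3% of all genes lower and 28.9% higher. These genes too were mostly bright. The brightest bin by signal held 86 of them, of which 56 were lower (65.1%), beside 40.9% of all genes in that bin. In the next bin 27 of 52 were lower (51.9%), beside 24.7%, and in the one below that 11 of 20 (55%), beside 6.2%. Without DC arrays 1 and 5 labelled Hes3 siRNA, a setting applied to the lists after the data were seen, 14 of the 158 were lower (8.86%) and 0 higher, with a median of -0.19, beside 1.41% of all genes. Condensin, which compacts chromosomes, had 6 of 8 genes lower, led by Ncapg2 at -0.54 (adjusted p = 0.00202), Ncapg at -0.42 and Ncaph at -0.36. Cohesin, shugoshin and separase genes, which hold and release sister chromatids, had 10 of 13 lower, among them Sgo2a at -0.58, Stag2 at -0.46 and Pds5b at -0.43. Of 17 APC/C subunits and regulators 8 were lower, with Cdc27 at -0.43, Anapc16 at -0.30 and Anapc4 at -0.30. All 8 were among the 11 of this list in the brightest bin, and 0 of its 17 genes were called by limma without arrays 1 and 5 (5 at an unadjusted p under 0.05).

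At the kinetochore, 9 of 15 inner centromere genes were lower, with Cenpp at -0.65, Cenpw at -0.60 and Cenpl at -0.47. Of 17 outer kinetochore genes 8 were lower, with Knl1, the checkpoint scaffold, at -0.55, Zwilch at -0.50 and Kntc1 at -0.31. Among 12 CDK1 regulators 8 were lower: Arpp19 (-0.85) and its kinase Mastl (-0.65), which together restrain the phosphatase that opposes CDK1, and the CDK1-activating phosphatase Cdc25c (-0.32) had the smallest p-values.

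Gamma-tubulin and augmin genes, which nucleate microtubules, had 9 of 16 lower. Mzt1, a small subunit of the gamma-tubulin ring complex, had a larger difference than any of the 44 genes at -0.97 (SE 0.156, adjusted p = 0.00227), and Haus6 and Tubgcp4 were at -0.38 and -0.33. Without arrays 1 and 5 the value of Mzt1 was -0.81 (adjusted p = 0.0493). Of 10 centriole genes 6 were lower (Sass6 at -0.56, Plk4 at -0.39 and Stil at -0.36 had the smallest p-values) and Cep63 was higher at 0.18. Of 20 other spindle and microtubule genes 16 were lower, with Depdc1a at -0.81, the importin Kpna2 at -0.66 and the kinesin Kif3a at -0.39. This list includes motors not specific to mitosis, Kif3a and Kif5b among them. Of 11 other cytokinesis genes 6 were lower, with Shcbp1 at -0.44, Pimreg at -0.29 and Arhgap11a at -0.27.

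The list of MuvB, NF-Y, E2F and FOXM1 genes, the regulators of mitotic transcription, had 8 of 19 lower (42.1%) and 1 higher. In the brightest bin 5 of its 12 genes were lower (41.7%), near the 40.9% of all genes there, and without arrays 1 and 5, 2 of the 19 were lower. The pocket protein Rbl2 was lower at -0.39, and the NF-Y subunits Nfya and Nfyc at -0.33 and -0.32. Foxm1 differed by -0.23 (adjusted p = 0.0148), and by -0.24 without arrays 1 and 5 (adjusted p = 0.0822). The 1 gene that was higher was Mybl2, which encodes B-MYB: 9.40 ± 0.122 under the Hes3 label and 9.16 ± 0.0443 with scrambled siRNA in DC (SD, n = 4 each), a difference of 0.25 (SE 0.0674, adjusted p = 0.011). Without arrays 1 and 5 the difference of Mybl2 was 0.16 and did not pass the threshold (adjusted p = 0.139). Differences were also set beside the CHR letters in the promoters. Of the 30 mitosis genes with the letters 27 were lower, with a median of -0.33, and of the 10 measured genes with a promoter without them 9 were lower, with a median of -0.39. Over all tested genes the medians were 0.09 with and 0.05 without the letters. Without arrays 1 and 5 the mitosis genes had 5 of 30 lower with the letters (median -0.30) and 3 of 10 without (median -0.35).

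Markers of other cell types were mostly dim, and dim genes as a whole were higher under the Hes3 label in DC. Of all genes 28.9% were higher and 18.3% lower, with 36.9% higher in the dimmest bin, 56.9% in the next, 19.6% in the one after and 2.39% in the brightest. Of 10 fibroblast markers 8 were higher, and their mean log2 signal was 7.69 to 7.93 in the Hes3-labelled arrays against 7.49 to 7.60 in the scrambled ones. Of 7 acinar markers 5 were higher (7.41 to 7.57 against 7.20 to 7.34) and of 8 immune and endothelial markers 4 were higher (6.99 to 7.12 against 6.85 to 6.93). In the 3 bins from the dimmest up, 0 of 1, 5 of 6 and 3 of 3 fibroblast markers were higher. For acinar markers the counts were 2 of 3, 2 of 2 and 1 of 2. For immune and endothelial markers they were 4 of 6, 0 of 1 and 0 of 1. Of 12 beta cell markers 4 were lower and 1 higher (11.6 to 11.7 against 11.8 in the scrambled arrays), and 4 of the 11 in the brightest bin were lower (36.4%), beside 40.9% of all genes there. Without arrays 1 and 5, limma called none of the fibroblast, acinar, immune and endothelial markers, with 7, 3 and 2 of the 3 lists at an unadjusted p under 0.05, and 1 beta cell marker was lower. The part of these markers in the mitosis result was not tested.

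The second comparison, between the same labels in classic conditions with 2 arrays a group, called none of the 44 mitosis genes; of all genes, 0% were lower and 0% higher in limma. At an unadjusted p under 0.05 there was 1 of 44, Ube2c, and 2.08% of all genes (415). The median difference was 0.04, 15 of the 44 were negative, and the range ran from -0.12 (Ndc80) to 0.28 (Ube2c). Ube2c was at 10.42 and 10.51 under the Hes3 label and at 10.06 and 10.31 with scrambled siRNA, a difference of 0.28 (95% interval 0.06 to 0.49, adjusted p = 1). In DC the same gene was at 10.11, 10.23, 10.12 and 9.95 under the Hes3 label and at 10.29, 10.28, 10.25 and 10.35 with scrambled siRNA. Its CC arrays under the Hes3 label were the highest of the 12.

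The arrays did not overlap for 7 genes in CC: Bub1b, Ube2c, Aurkb, Cenpa, Kif11 and Ect2 were above under the Hes3 label and Aspm was below. Shares of 13.9% above and 13.1% below were found over all genes. The intervals were wide. That of Hmmr ran from -0.23 to 0.52 around 0.14, and that of Ect2 from -0.07 to 0.53 around 0.23. CC scrambled array 1 was low for most of these genes, and leaving out 1 CC array at a time moved the median from -0.05 to 0.16.

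The third comparison was between culture conditions with scrambled siRNA (DC minus CC, 4 arrays against 2). Of the 44 genes, 10 were higher in DC and 0 lower, with 3.09% of all genes higher and 5.45% lower. The median was 0.20, beside 0.02 over all genes, and 38 of the 44 were positive. Those higher were the spindle-pole gene Aspm at 0.74 (SE 0.0918, adjusted p = 9.97e-05), Kif23 at 0.70, Ect2 at 0.51, Anln at 0.49, Cenpf at 0.44, Plk1 at 0.41, Kif2c at 0.40, Cenpe at 0.39, Cdc20 at 0.33 and Mki67 at 0.30. For each of the 10 all DC scrambled arrays were above both CC scrambled arrays. Over the 44 genes this held for 23, against 13.8% of all genes, and 1 gene had all DC arrays below, against 14.1%. Aspm reached 167% of its CC signal and Kif23 162%.

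No gene of the cyclin group and no passenger gene passed the threshold in this comparison. Ccna2 differed by -0.05 (95% interval -0.28 to 0.18) and Cdk1 by -0.06 (-0.29 to 0.16). The lowest value was that of Nuf2, a subunit of the NDC80 complex, at -0.28 (adjusted p = 0.0772). With scrambled siRNA, Nuf2 averaged 9.60 ± 0.0474 in DC (SD, n = 4) and 9.88 ± 0.213 in CC (SD, n = 2), without overlap. Leaving out single arrays gave 3 to 15 genes higher, the fewest without CC scrambled array 1, and array weights gave 5. Of all genes, 1.77% to 3.71% were higher with single arrays left out and 1.69% with array weights. Of the 158 other mitotic genes 17 were higher, among them the spindle genes Ckap5 (0.45), Numa1 (0.34) and Clasp2 (0.33). The 10 that were lower, E2f2 (-0.49), Tfdp1 (-0.45) and E2f8 (-0.43) among them, are a share near that of all genes (5.45%), and the median of the 158 was 0.02.

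The fourth comparison was between culture conditions under the Hes3 label (DC minus CC, 4 arrays against 2). Of the 44 genes, 17 were lower in DC and 1 higher, with 18.8% of all genes lower and 21.2% higher. The median was -0.18, beside 0.09 over all genes. The largest differences were those of Mad2l1 at -0.63 (SE 0.118, adjusted p = 0.00121), Nuf2 at -0.61, Ccna2 at -0.61, Hmmr at -0.61, Bub1 at -0.57 and Cdk1 at -0.52. Aspm was the 1 gene higher, at 0.28 (adjusted p = 0.0271). The DC arrays were all below both CC arrays for 19 of the 44 genes, against 23.4% of all genes, and all above for 1, against 38.4%. Mki67, Kif15 and Cenpe did not pass the threshold, with differences within 0.03 of 0.

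These counts depended on scaling. Quantile normalization gave 10 lower and 3 higher with a median of -0.03, beside 15% of all genes lower and 10.3% higher. Cyclic loess gave 11 lower and 4 higher with a median of -0.04, beside 16.3% of all genes lower and 9.39% higher. Centring on the array median, which moved the median of all genes from 0.09 to -0.02, gave 22 lower, 0 higher and a median of -0.29. Among all genes the split between lower and higher turned from 18.8% and 21.2% to 24.8% and 5.19% under centring. In the brightest of the 4 bins by signal, mitosis genes had a median of -0.19, as did all genes of that bin, and 13 of 33 were lower, beside 2218 of 4985. Without DC arrays 1 and 5 labelled Hes3 siRNA, 8 of the 44 were lower, beside 12.4% of all genes. Leaving out CC Hes3-labelled array 1 gave 9 lower, CC Hes3-labelled array 2 gave 6, and DC Hes3-labelled array 1 gave 11. The shares of all genes lower in these 3 settings were 12.2%, 8.71% and 16.9%.

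Set side by side, the genes of this family did not keep the same order of groups. The DC arrays labelled Hes3 siRNA had the lowest mean of the 4 groups for 34 of 44 genes, and the DC scrambled arrays the highest for 33. These 2 counts were not made over all genes. Of the 44 genes, 33 lay in the brightest bin, where 40.9% of all genes were lower under the Hes3 label in DC and 2.39% higher. Of the 10 genes higher in DC with scrambled siRNA, Kif23, Anln, Cenpf, Cenpe, Plk1, Kif2c, Cdc20 and Mki67 were not called between culture conditions under the Hes3 label, Aspm was higher there too, and Ect2 was lower at -0.32 (adjusted p = 0.0454). The calls of Aspm and Ect2 under the Hes3 label were lost in 8 and 13 of the alternative settings. Ccna2, Cdk1, Mad2l1, Bub1 and Nuf2, lower in DC under the Hes3 label, were not called with scrambled siRNA. These genes were singled out after their values were seen, and the difference between the culture comparisons passed the threshold for none of them, as given below. The 2 siRNA comparisons each share arrays with the 2 culture comparisons, so these values are not independent of one another.

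**Figure D5:**
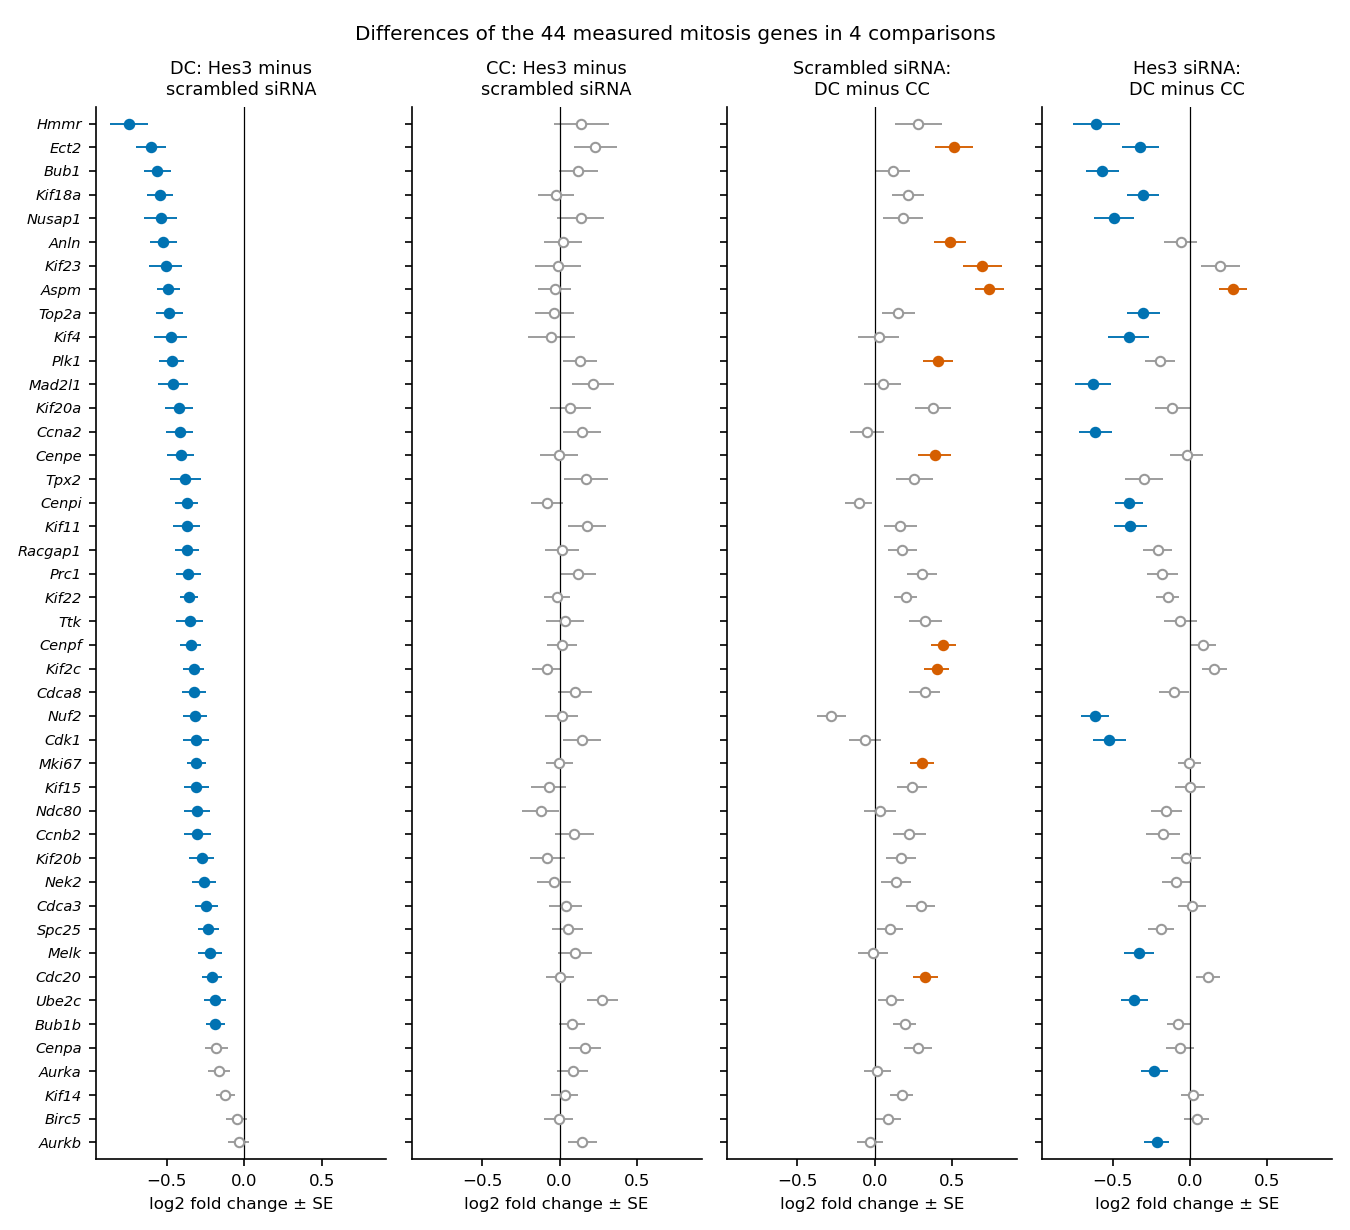
Log2 fold change with its SE (x axis) of the 44 measured mitosis genes (rows, ordered by the first panel) in 4 comparisons; blue is lower and orange higher at a limma adjusted p under 0.05, open grey is not called. The first panel has 39 genes lower, the second none called, the third 10 higher, and the fourth 17 lower and 1 higher.

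Whether the siRNA difference itself differed between culture conditions was tested as the difference of the 2 siRNA comparisons, which equals the difference of the 2 culture comparisons. None of the 44 genes passed the threshold (smallest adjusted p = 0.177), and of all genes 0% did. At an unadjusted p under 0.05 there were 34 of 44, with 17.4% of all genes. All 44 values were negative, from -0.89 for Hmmr (SE 0.216, 95% interval -1.35 to -0.43) to -0.04 for Birc5, with a median of -0.39, beside 0.05 over all genes. After Hmmr came Ect2 at -0.83, Bub1 at -0.68, Mad2l1 at -0.68 and Plk1 at -0.60. The size turned on the CC scrambled arrays, where leaving out 1 leaves a group of a single array. Without array 2 the median was -0.51 and Hmmr was at -1.21. These values rest on CC scrambled array 1, the lower of its group for 42 of 44 genes. Without array 1 the median was -0.27. Leaving out any single DC array called 0 of the 44 genes and 0% of all genes.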

How the data were processed

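Biotinylated cDNA from 250 ng of total RNA was hybridised to GeneChip whole-transcript arrays, per the labels' protocols. The authors deposited one table of log2 signal for 35556 probe sets in 12 columns, 1 per array, and all 12 were used. The values ran from 3.94 to 14.4, from which the log2 scale was read; the background correction, summarization and normalization are not given in the sources used here. No scanner files were used, so saturation and background could not be checked, and the number of arrays limits the precision.

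A gene was represented by its brightest probe set among the 21789 that name a single gene, which left 19938 genes. Group means were fitted over the 12 arrays by lmFit and eBayes of limma (version 3.58.1, under R version 4.3.3), without covariates and with 8 residual and 7.62 prior degrees of freedom, and two-sided p-values were adjusted by Benjamini-Hochberg over all genes. Called, higher and lower mean an adjusted p under 0.05; intervals are 95%, SE is the standard error and SD the standard deviation. The fit was also run on simulated data with known changes.

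The members and the lists were chosen with earlier results of these data known. Values in every array are printed for the 2 genes of each role with the largest difference in DC, for Mki67, Top2a, Cdk1 and Plk1, for the 2 uncalled genes with the smallest p and for the gene with the largest change in each other comparison; of each list, the 3 genes with the smallest p in DC are named. Genes named besides these were chosen after their values were seen. Alternatives were quantile, cyclic loess and median scaling, a filter on the dimmest 40% of genes, array weights, other variance priors, a 1.5-fold minimum, a replicate block and leaving out arrays.

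Replicate numbers were not taken as pairs, as the labels do not say what they stand for. Deviations of same-numbered arrays from their group means correlated at 0.25 in CC and at -0.37 and -0.33 in DC. With 2 arrays a group, both CC numbers give the same value by construction. Differently numbered arrays were not compared, so these values cannot show whether arrays were paired.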

Additional observations from a re-analysis of the deposited data

Results flagged for a closer look

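Among 88 sets of 4 DC arrays (44 genes in 2 groups), 9 held an array far from the other 3 by Dixon's ratio test, where chance gives about 1 in 20 for a single set. The sets are not independent, since all 44 genes were read on the same arrays, so the 9 are not separate events. Array 2 labelled Hes3 siRNA was far above the rest of its group for Cdk1 (10.82, others 10.61 to 10.64), Cenpe (9.97, others 9.58 to 9.64), Nusap1 (9.17, others 8.88 to 8.89) and Anln (10.47, others 10.09 to 10.15). Array 7 labelled Hes3 siRNA was far below the rest for Cenpa (9.64, others 9.90 to 9.93). Among scrambled arrays, array 3 was far below for Mki67 (12.19, others 12.29 to 12.31) and Ect2 (10.59, others 10.86 to 10.91). Array 1 with scrambled siRNA was far below for Bub1b (9.38, others 9.46 to 9.48) and far above for Kif15 (9.67, others 9.48 to 9.49).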

How the results depend on the processing

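In the siRNA comparison in DC, the 39 genes lower became 30 (quantile or cyclic loess), 42 (centred arrays) and 40 (array weights), and 35 to 41 when single arrays were left out. Of all genes, 11.8% (quantile), 13.1% (cyclic loess), 25.2% (centred), 19.1% (array weights) and 12.4% to 20.1% (single arrays left out) were lower. A minimum of 1.5-fold left 2, leaving out DC Hes3-labelled arrays 1 and 5 left 8, and the replicate block, with 3 residual degrees of freedom, left 4 (Bub1, Kif18a, Hmmr and Ect2). In that order, these settings left 0.963%, 1.41% and 2.55% of all genes lower. Replicate numbers 3, 4, 5 and 7 each belong to a single DC array. All DC values under the replicate block therefore rest on arrays 1 and 2 of each label. The median was -0.23 after quantile normalization. Uncalled Aurkb turned to 0.10 (quantile), 0.10 (cyclic loess), 0.0089 (replicate block) and 0.0045 (without Hes3-labelled array 7), and uncalled Birc5 to 0.0425, 0.0115 and 0.0186 under the first 3 of these; leaving out single arrays gave -0.0638 to 0.0045 for Aurkb.

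The CC median ran from -0.0531 to 0.156 when single arrays were left out. With scrambled siRNA, the 10 genes higher in DC than in CC became 5 (array weights), 2 (at least 1.5-fold) and 3 to 15 (single arrays left out); the count lower ran from 0 to 1 and the median from 0.0812 to 0.307. Of all genes, these settings gave 1.69%, 0.562% and 1.77% to 3.71% higher. With single arrays left out, 1.95% to 8.3% of all genes were lower.

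Under the Hes3 label, the 17 genes lower in DC than in CC became 10 (quantile), 11 (cyclic loess), 8 (replicate block), 4 (at least 1.5-fold), 8 (arrays 1 and 5 left out) and 6 to 19 (single arrays left out). Of all genes, these settings gave 15%, 16.3%, 12.8%, 5.17%, 12.4% and 8.71% to 20.2% lower. The 1 gene higher became 3 (quantile), 4 (cyclic loess), 2 (array weights), 2 (replicate block), 0 (centred arrays, only the arrays compared, at least 1.5-fold, or arrays 1 and 5 left out) and 0 to 2 (single arrays left out). Of all genes, 10.3%, 9.39%, 27.6% and 7.47% were higher under the first 4 of these settings. The share was 5.19% (centred), 15.8% (only the arrays compared), 0.366% (at least 1.5-fold), 5.86% (arrays 1 and 5 left out) and 3.11% to 27.6% (single arrays left out). The median was -0.0315 (quantile), -0.29 (centred), -0.0418 (cyclic loess) and -0.23 to -0.12 (single arrays left out).

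For the difference of the siRNA comparisons, leaving out single arrays gave 0 to 22 genes lower and medians from -0.51 to -0.27. Of all genes, 0% to 7.85% were lower there. The causes of these shifts were not tested. The labels do not say whether same-numbered arrays share anything besides the number. Under the replicate block, where only arrays 1 and 2 of each label bear on it, the median of the siRNA comparison in DC was -0.28.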
